A study of Mus musculus with 24 samples.

Results

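Mouse embryonic fibroblasts (MEFs) that had been immortalized and lacked Mlx were compared with immortalized MEFs that lacked both Mlx and Myc. These were the 3 libraries of immortalized DKO cells and the 3 libraries of immortalized MlxKO cells among the 24 libraries of the series, and every gene was kept that reached 1 CPM (the authors' read count scaled to library size) in at least 3 of the 12 immortalized libraries. This left 12880 of 41710 genes. MEFs came from pooled embryos of embryonic day 14 to 16 with floxed alleles of Myc, Mlx or both, and all carried 2 copies of a CreER transgene that the ROSA26 promoter drives. For immortalization, floxed MEFs were transduced for 72 h with a lentivirus that encodes SV40 T-antigen and blasticidin resistance and were selected in blasticidin at 1 µg/ml for 5 days and at 2 µg/ml for 10 days. The floxed genes were excised in the immortalized cells afterwards with 4-hydroxytamoxifen (4OHT, 500 nM in the protocol), and WT cells were kept without it. All immortalized groups therefore express T-antigen, which binds p53 and the Rb family. The deletions take out part of each gene, so exons that remain can still give reads. DKO and MlxKO cells came from separately derived floxed cultures, so the deletion of Myc and the history of the line cannot be told apart. Immortalized WT and MycKO libraries (3 of each) and primary DKO and MlxKO libraries (3 of each, excised without T-antigen) served for comparison. The paper reports that most immortalized MycKO cells became tetraploid or pseudo-tetraploid, while DKO cells stayed euploid. Ploidy and the presence of Mlx therefore cannot be told apart where MycKO minus WT is set beside DKO minus MlxKO.

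Myc is a transcription factor that pairs with Max and binds E-box DNA, with CACGTG as its best known form. It drives genes of ribosome production, nucleotide synthesis and the cell cycle. Mlx is the partner of the glucose-sensing factors MondoA (Mlxip) and ChREBP (Mlxipl), and the complexes of Mlx and those of Max share binding sites and the repressors Mnt, Mxd1 and Mxd4. In MlxKO cells the Mlx arm of this extended Myc network is missing, and in DKO cells both arms are. Genes for nucleolar proteins, which make and process ribosomal RNA, are among the best known Myc targets.

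DKO libraries held between 18119003 and 18500836 reads on genes and MlxKO libraries between 17944748 and 18938091, so that 3 reads corresponded to between 0.145 and 0.171 CPM. Within a group, log2 levels of libraries correlated at 0.990 to 0.994 for DKO and 0.989 to 0.996 for MlxKO, and between these groups at 0.944 to 0.955. No pair of libraries was the same within counting noise. WT library 4 stood apart from the other WT libraries (r of 0.943 and 0.950, against 0.992 between the other 2). This library differed from them in sex-linked, imprinted and interferon-stimulated genes and in others, Tbx5, Pitx1 and Wnt10a among them. It is in no group compared between DKO and MlxKO, but it enters the shared estimate of spread and the WT mean, and counts of list members that moved by over 1.5 times when it was left out are given with each list. All 12 fibroblast markers were tested and their summed level was between 26925 and 34770 CPM in DKO and between 18620 and 22924 CPM in MlxKO libraries. Erythroid markers summed to at most 0.150 CPM, and macrophage markers to between 10.3 and 12.4 CPM in these 6 libraries with 6 of 12 markers at 0 in each group.

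Between DKO and MlxKO cells 3879 genes (30.1% of those tested) differed, 2094 higher (16.3%) and 1785 lower (13.9%) in DKO. The test was limma on log2(CPM + 1) with a Benjamini-Hochberg adjusted p under 0.05, two-sided, and all log2 fold changes are on that scale, DKO minus MlxKO unless another pair is named. Nothing states that libraries of a group came from separate cultures of separate embryos, so p-values measure the spread between these libraries. Levels of 7006 genes (54.4%) did not overlap between the 3 DKO and the 3 MlxKO libraries, 3588 of them above (27.9%) and 3418 below (26.5%). Most differences were moderate, with a median absolute log2 fold change of 0.70 among the genes called. A difference of at least 1 was found for 1000 genes (483 higher, 517 lower) and of at least 3 for 58 (26 higher, 32 lower). With scaling by library totals in place of the authors' scaling, the median over all genes moved to -0.16 and the share of called genes that were higher in DKO moved from 54.0% to 29.2%, so small differences below are relative to the authors' scaling. Counts of list members below are to be set beside the counts over all 12880 genes in the same fit. These were 2912 higher and 2653 lower (20.6%) with WT library 4 left out, and 1268 higher and 3072 lower (23.9%) under library totals.

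Myc itself, at chr15:61857227-61862223 on GRCm39 (plus strand), was at 8.02, 5.77 and 4.25 CPM in DKO libraries 13, 14 and 15 and at 72.4, 82.8 and 79.5 CPM in MlxKO libraries 5, 6 and 7. All later values are given in this order of libraries. DKO libraries were all far below MlxKO libraries, with a log2 fold change of -3.53 (SE 0.43, adjusted p = 0.000136), or a mean level 13.0-fold lower. In bulk RNA a lower level cannot be told apart from fewer cells with the transcript. Mlx (chr11:100978080-100983043, plus strand) was at 14.5, 18 and 17.7 CPM in DKO and 17.0, 12.4 and 12.1 CPM in MlxKO libraries, where groups overlapped and no difference passed the test (adjusted p = 0.217). Its mean was 23 CPM in WT and 25.1 CPM in MycKO libraries. Mycn and Mycl, the relatives of Myc, were low. Mycn had 0 reads in DKO and at most 0.306 CPM in MlxKO libraries, Mycl had at most 0.718 and 2.10 CPM, and neither passed the test.

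Among the 12 tested members of the network, 3 were lower in DKO (Myc, Max and Mxi1) and 0 were higher. Max, the obligate partner of Myc, was at 37.3, 36.3 and 38.3 CPM in DKO against 54.1, 49.3 and 49.9 CPM in MlxKO, a log2 fold change of -0.44 (SE 0.10, adjusted p = 0.00697). Mxi1, a repressor that competes with Myc for Max, was at 10.7, 14.7 and 11.8 against 28.8, 24.0 and 24.9 CPM and fell by 1.01 on the log2 scale (adjusted p = 0.000369). Both groups were fully separated for both genes. Levels of the repressors Mnt, Mxd1 and Mxd4 and of Mlxip also lay below those of MlxKO in every DKO library, but with log2 fold changes between -0.56 and -0.24 none passed the test. With WT library 4 left out of the shared fit 6 members were lower, Mnt and Mxd1 among them. The count was also 6 in a fit to the 6 DKO and MlxKO libraries alone, and it was 7 under scaling by library totals and 5 with DESeq2. The fall of Mxi1 was smaller in cells without Mlx than in cells with it, where MycKO minus WT was -1.61, an interaction of 0.59 (adjusted p = 0.0316; 0.49 without WT library 4, and 0.36, no longer past the threshold, when each library was corrected for the GC content and length of transcripts).

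**Figure D1:**
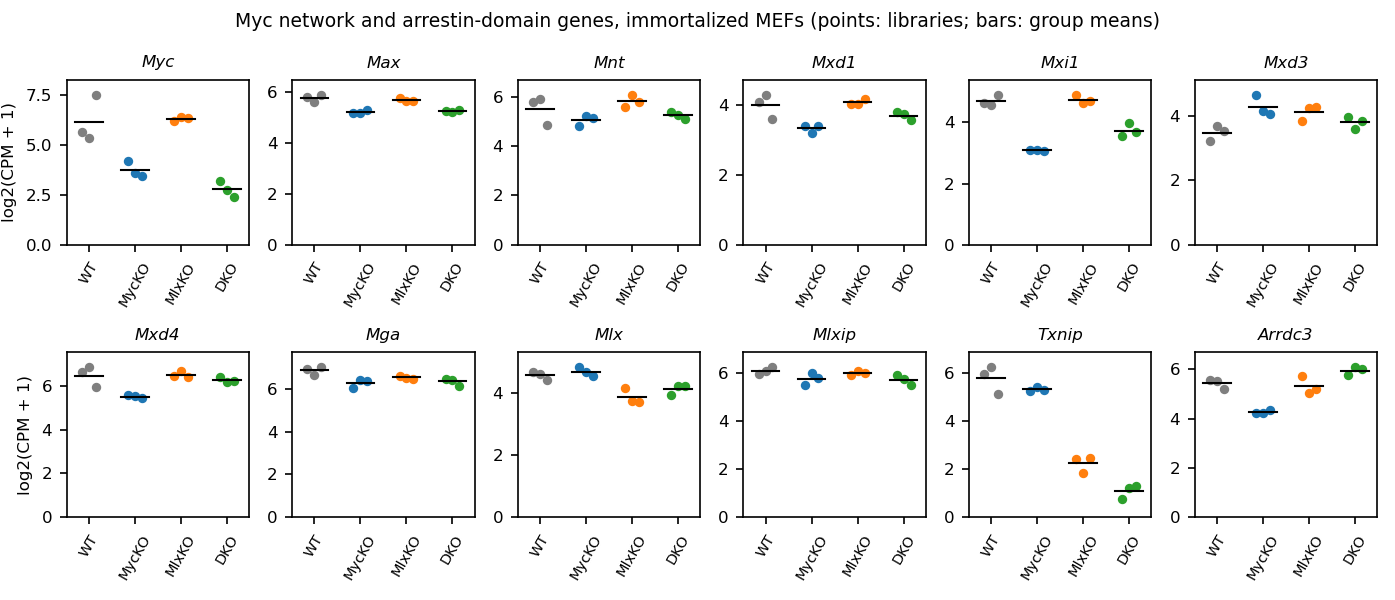
Levels of 12 genes of the extended Myc network and its targets in immortalized MEFs, as log2(CPM + 1) on axes that start at 0. Points are the 3 libraries of each group and bars their means: Myc is low in MycKO and DKO, Max and Mxi1 are lower in both groups without Myc, and Txnip is low in both groups without Mlx.

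The arrestin-domain genes are the best known targets of MondoA and Mlx, and Txnip, which limits glucose uptake, is the foremost of them. Txnip was at 0.682, 1.30 and 1.49 CPM in DKO against 4.40, 2.55 and 4.54 CPM in MlxKO libraries, with means of 39.0 CPM in MycKO and 56.3 CPM in WT. In cells already low in Txnip it was lower still in DKO by a log2 fold change of -1.15 (SE 0.27, adjusted p = 0.00737). Its paralog Arrdc3 was at 53, 66.9 and 62.7 against 52.2, 31.5 and 35.9 CPM, which was higher by 0.63 (adjusted p = 0.0174). That call was lost without DKO 14, DKO 15, MlxKO 6 or MlxKO 7, under scaling by library totals and with the GC correction. In cells with Mlx the pair MycKO and WT differed the other way (log2 fold change -1.17), and the interaction of 1.796 passed the test (adjusted p = 0.000149; 1.91 without WT library 4). Arrdc4, Arrdc2 and Arrdc1 did not pass, with log2 fold changes of 0.64, -0.46 and -0.30. Arrdc4 and Arrdc1 passed with WT library 4 left out of the shared fit, which gave 2 of these genes higher and 2 lower.

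The paper names Shmt, without its isoform, and Hmga1, a chromatin protein, among genes that when overexpressed can in part make up for Myc loss in other fibroblasts. Shmt1, a cytosolic enzyme of folate one-carbon metabolism, was taken for Shmt here. Shmt1 was at 21.5, 18.3 and 20.5 CPM in DKO and 35.7, 36.5 and 32.7 CPM in MlxKO libraries, and it fell by 0.77 on the log2 scale (adjusted p = 0.000695). Hmga1 was at 292, 233 and 244 against 345, 501 and 450 CPM, with no overlap but an adjusted p of 0.051. In cells with Mlx, Hmga1 was much higher in MycKO (mean 1131 CPM) than in WT (172 CPM), so its interaction was -3.57 (adjusted p = 2.28e-05; -3.96 without WT library 4). Of the 50-base stretches in the transcript of Hmga1, 30.5% also occur in another gene, and the counting may split such reads. Myct1 and Plac8 did not reach the level needed for a test.

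Genes of ribosome production were lower in DKO cells. Of 80 tested genes for nucleolar ribosome biogenesis, 39 were lower and 0 higher, with a median log2 fold change of -0.52 (0.00 over all genes), and 60 lay below MlxKO in every library. The mean log2 level over the list was between 5.20 and 5.25 in DKO and between 5.69 and 5.73 in MlxKO libraries, which did not overlap. The members called were 7 of 11 snoRNP proteins, 5 of 13 subunits and factors of RNA polymerase I and 27 of 56 processome and assembly factors. The number of calls was 52 with WT library 4 left out of the shared fit, 57 under scaling by library totals, 43 with the GC correction and 29 without DKO 13 or MlxKO 5, and it was 17 without DKO 14, 23 without DKO 15 and 19 without MlxKO 6 or MlxKO 7.

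The largest falls in this group were those of Nhp2, Ppan and Nolc1. Nhp2, an H/ACA snoRNP protein that is also part of telomerase, was at 16.7, 14.3 and 19.3 CPM in DKO and 35.6, 50.4 and 47.7 CPM in MlxKO (log2 fold change -1.36, SE 0.24, adjusted p = 0.00138). Ppan, a factor of large-subunit assembly, was at 32.5, 24.4 and 25.5 against 60.5, 71.0 and 60.3 CPM (-1.20, SE 0.18, adjusted p = 0.0005). Nolc1, a nucleolar chaperone of snoRNPs, was at 60.3, 54.2 and 54.9 against 126, 129 and 125 CPM (-1.15, SE 0.19, adjusted p = 0.00113). For each of the 3 genes every DKO library lay below every MlxKO library. Fbl, the methyltransferase of box C/D snoRNPs, had means of 40.5 and 83.2 CPM (-1.02, adjusted p = 0.000114).

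The 250 bases before the start of these 3 genes (RefSeq, build GRCm38.p6) are shown because the E-box is the site through which Myc and Mlx complexes bind, and next to them those of Wdr46 and Nop2, which were chosen after their sequence was seen as the nucleolar genes with the motif that fell most. Wdr46, a processome protein, fell by 1.01 and Nop2, an rRNA methyltransferase, by 0.98 on the log2 scale. Capitals mark CACGTG, which reads the same on both strands, and all 5 sequences are on the plus strand at chr11:51619523-51619772, chr9:20887925-20888174, chr19:46075597-46075846, chr17:33940473-33940722 and chr6:125131633-125131882.
Nhp2: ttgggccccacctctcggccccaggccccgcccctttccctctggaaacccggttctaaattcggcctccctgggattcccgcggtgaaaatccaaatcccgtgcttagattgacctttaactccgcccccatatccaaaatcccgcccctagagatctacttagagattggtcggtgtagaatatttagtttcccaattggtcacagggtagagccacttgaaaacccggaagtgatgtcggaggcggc
Ppan: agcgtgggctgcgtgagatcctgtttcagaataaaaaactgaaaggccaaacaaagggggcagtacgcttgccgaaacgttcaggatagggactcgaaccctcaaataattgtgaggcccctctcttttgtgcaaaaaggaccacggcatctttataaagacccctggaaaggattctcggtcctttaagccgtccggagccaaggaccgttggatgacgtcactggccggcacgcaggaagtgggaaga
Nolc1: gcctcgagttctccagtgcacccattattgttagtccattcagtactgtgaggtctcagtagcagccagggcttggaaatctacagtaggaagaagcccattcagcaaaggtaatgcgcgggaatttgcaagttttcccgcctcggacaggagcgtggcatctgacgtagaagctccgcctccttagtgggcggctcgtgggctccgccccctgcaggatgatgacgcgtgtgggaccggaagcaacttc
Wdr46: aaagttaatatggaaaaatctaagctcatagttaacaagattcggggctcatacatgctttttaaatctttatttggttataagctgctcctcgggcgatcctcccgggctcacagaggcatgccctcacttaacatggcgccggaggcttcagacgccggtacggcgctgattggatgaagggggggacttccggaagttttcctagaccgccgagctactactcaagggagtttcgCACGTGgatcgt
Nop2: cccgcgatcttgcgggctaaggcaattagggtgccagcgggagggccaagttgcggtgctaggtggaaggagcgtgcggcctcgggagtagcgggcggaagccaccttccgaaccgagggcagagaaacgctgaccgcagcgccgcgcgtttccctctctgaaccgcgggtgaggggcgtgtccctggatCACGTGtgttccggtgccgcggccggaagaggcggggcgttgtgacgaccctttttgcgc
The motif lay 12 bases before the start of Wdr46 and 60 bases before that of Nop2, and it was not among the letters of this window for Nhp2, Ppan and Nolc1. It was found before 121 of 1366 genes called lower (8.86%), 151 of 1631 called higher (9.26%) and 851 of all 10070 tested genes with an entry (8.45%), and 6.05% of all 27025 promoters in the table held it. Among nucleolar genes 5 of 68 (7.35%) held it and among ribosomal protein genes 4 of 60 (6.67%). The highest share of any list was that of the lysosomal genes, 8 of 26 (30.8%), and CACGTG is also the core of the site of the lysosomal factors Tfeb and Tfe3. These shares are descriptions.

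Genes for the proteins of the cytosolic ribosome were lower as well. Of 81 tested, 37 were lower in DKO and 0 higher, 69 lay below MlxKO in every library, and the median log2 fold change was -0.62. The mean log2 level over the list was between 7.44 and 7.77 in DKO and between 8.08 and 8.26 in MlxKO libraries. Calls fell on 26 of 47 large-subunit and 11 of 34 small-subunit genes. Rpl8 was at 312, 230 and 262 CPM in DKO and 461, 706 and 671 CPM in MlxKO (log2 fold change -1.18, adjusted p = 0.00193), and Rpl13 was at 329, 269 and 313 against 513, 773 and 745 CPM (-1.14, adjusted p = 0.00283). Rpl36a, with 27.8, 27 and 35.2 against 71.3, 66.1 and 69.4 CPM, fell by 1.18. The count of genes lower was 15 without DKO 14 or MlxKO 6, 14 without MlxKO 7, 24 without DKO 13, 30 without DKO 15 and 36 without MlxKO 5, against 51 with WT library 4 left out and 47 with the GC correction. In the fit to the 6 libraries alone it was 71. Of the 82 ribosomal protein genes with a transcript, 8 have at least 50% of their 50-base stretches in another gene as well, so single members are less certain than the list.

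In primary cells, which had no T-antigen, the same pair of genotypes differed in the same direction at more genes of these lists, with 73 of 80 nucleolar and 71 of 81 ribosomal protein genes lower in DKO and 0 higher (49.1% of all genes tested there were called, 25.9% lower). In immortalized cells with Mlx, MycKO minus WT gave 32 nucleolar genes lower and 5 higher, and 10 ribosomal protein genes lower and 7 higher (48.0% of all genes called, 23.5% lower and 24.4% higher). Without WT library 4, in which the mean log2 level of the nucleolar list was 6.05 against 5.42 and 5.44 in the other WT libraries, these counts were 26 lower and 11 higher for nucleolar genes. For ribosomal proteins they were 5 lower and 9 higher. In MycKO library 9 the mean log2 level of the ribosomal protein list was 8.66, above all WT libraries (7.89 to 8.36). It was 7.67 and 7.73 in MycKO libraries 10 and 11, below all WT libraries. The ribosomal protein counts, and the interactions that follow, thus combine MycKO libraries on opposite sides of WT. The interaction, which tests whether DKO minus MlxKO differs from MycKO minus WT, was negative for 12 nucleolar and 24 ribosomal protein genes and positive for 5 and 1 (33 and 37 negative, 5 and 1 positive, without WT library 4).

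Among mitochondrial ribosomal proteins 6 of 78 were lower and 0 higher, with a median of -0.17. This was under the background share of 13.9%, but the count depended on the fit. It was 11 (14.1%) with WT library 4 left out (and 1 higher), where 20.6% of all genes were lower. The count was 17 (21.8%) under scaling by library totals, where 23.9% of all genes were lower, and 22 (28.2%) in the fit to the 6 libraries alone, where 22.6% of all genes were. Mrps5, of the small subunit, was at 20.3, 17.5 and 16.8 CPM in DKO and 23.8, 33.7 and 33.5 CPM in MlxKO (log2 fold change -0.69, adjusted p = 0.00408). MycKO minus WT went up instead, with 24 higher and 0 lower, and 29 members had a negative and 0 a positive interaction. Without WT library 4, 29 were higher and 30 had a negative interaction. The number lower in DKO was 2 without DKO 14 or MlxKO 6, 3 without DKO 15 or MlxKO 7 and 10 without MlxKO 5. MycKO library 9 had the highest mean log2 level of this list, 5.18 against 4.60 and 4.62 in the other MycKO libraries.

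Other parts of translation had calls in both directions. Of 49 translation factors 10 were lower and 5 higher, or 17 and 7 with WT library 4 left out and 21 and 1 under scaling by library totals. The first of these counts is 30.6% called, near the 30.1% of all genes. Eif3g, a subunit of the initiation factor eIF3, was at 47.0, 36.7 and 45.0 CPM in DKO against 65.2, 95.6 and 87.6 CPM in MlxKO and fell by 0.92. Pabpc1, the poly-A binding protein, was at 586, 642 and 616 against 1061, 1001 and 1014 CPM and fell by 0.74. Eif1a went the other way, with 235, 298 and 337 against 185, 147 and 178 CPM (log2 fold change 0.75, adjusted p = 0.00697). Among 22 tested aminoacyl-tRNA synthetases, which charge tRNAs, 8 were lower and 0 higher (36.4% called, against 30.1% of all genes). Kars, with 110, 109 and 115 against 185, 180 and 181 CPM, fell by 0.70. With WT library 4 left out 9 synthetases were lower and 1 higher. Without one library the count of synthetases lower was 3 (DKO 15), 4 (MlxKO 6 or MlxKO 7), 5 (DKO 14 or DKO 13) or 6 (MlxKO 5). That of translation factors higher was 2 without DKO 14, DKO 15, MlxKO 6 or MlxKO 7.

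Nucleotide synthesis had calls in both directions. Of 33 tested genes 12 were lower and 6 higher, which comprised 7 lower and 1 higher of 15 purine genes, 5 lower and 2 higher of 12 pyrimidine genes, and 0 lower and 3 higher of the 6 genes of ribonucleotide reduction and kinases. A difference between these branches was not tested, and scaling by library totals gave 17 lower and 2 higher. Cad, which starts pyrimidine synthesis, was at 89.2, 78.8 and 64.3 CPM in DKO against 129, 194 and 162 CPM in MlxKO (log2 fold change -1.05, adjusted p = 0.0132, a call lost without DKO 15 or MlxKO 6). Aprt, of purine salvage, was at 43.0, 41.5 and 46.2 against 81.8, 89.2 and 85.9 CPM and fell by 0.96. Rrm2, a subunit of ribonucleotide reductase, was higher, with 238, 246 and 267 against 148, 168 and 167 CPM (0.63, adjusted p = 0.00113). In primary cells Rrm2 was lower in DKO (-0.75), and 26 of the 33 genes were. Without one library the calls higher numbered 2 (DKO 15 or MlxKO 7) or 3 (DKO 14 or MlxKO 6), and the calls lower 7 (DKO 15) to 11.

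Of 18 serine and folate one-carbon enzymes 7 were lower and 1 higher (44.4% called, against 30.1% of all genes). Beside Shmt1, its mitochondrial paralog Shmt2 was at 119, 89.0 and 103 CPM in DKO against 143, 188 and 175 CPM in MlxKO and fell by 0.70. Aldh1l1, a folate dehydrogenase of low level, fell by 0.86. Slc1a4, a transporter of serine and alanine, was higher by 0.58 (65.7, 64.4 and 62.6 against 40.2, 44.0 and 43.3 CPM), a call lost without DKO 14 or MlxKO 5 and under scaling by library totals. Of 13 polyamine genes 2 were higher and 2 lower, or 2 and 4 with WT library 4 left out, 2 and 5 in the fit to the 6 libraries alone and 2 and 6 under scaling by library totals. The first of these counts is 30.8% called, near the 30.1% of all genes. The classical Myc target Odc1, the first enzyme of polyamine synthesis, was higher in DKO, at 287, 306 and 315 against 192, 210 and 209 CPM (0.57, adjusted p = 0.00713), as was its positive regulator Azin1 (0.66). Smox, spermine oxidase, fell by 1.22 and the antizyme Oaz2 by 0.78. In primary cells Odc1 was lower in DKO (-0.33) and Smox and Oaz2 were higher (0.32 and 0.51).

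Glucose uptake and glycolysis had calls mostly in one direction. Of 22 tested, 6 were lower and 1 higher (10 and 2 with WT library 4 left out, 12 and 0 under scaling by library totals). The first of these counts is 31.8% called, near the 30.1% of all genes. Of all genes 13.9% were lower, or 20.6% with WT library 4 left out and 23.9% under library totals. Aldoc, Pfkm and the lactate transporter Slc16a1 were lower by 0.93, 0.76 and 0.66 on the log2 scale. Slc2a1, the glucose transporter GLUT1, was higher by 0.35, with 149, 142 and 143 CPM in DKO against 101, 122 and 118 CPM in MlxKO (adjusted p = 0.0147), a call lost without MlxKO 5 and under scaling by library totals. In cells with Mlx, 13 were higher in MycKO and 2 lower, and 11 members had a negative interaction (13 higher, 4 lower and 12 negative without WT library 4). Of 76 genes for the respiratory chain and ATP synthase, 8 were lower and 0 higher, a share under the background of 13.9%, with Cox8a (-1.10) and the cytochrome c1 gene Cyc1 (-0.57) leading. It was 10 lower and 1 higher with WT library 4 left out, 13 and 0 under scaling by library totals and 19 and 1 in the fit to the 6 libraries alone, where the share was above the 22.6% of all genes that were lower. MycKO minus WT gave 23 higher and 3 lower (29 and 3 without WT library 4). In MycKO library 9 the mean log2 level of these respiratory genes was 6.45, against 5.60 and 5.65 in MycKO libraries 10 and 11. WT libraries lay between 5.39 and 5.62, so the rise was largest in 1 MycKO library. The number lower in DKO was 3 without MlxKO 6, 2 without MlxKO 7, 4 without DKO 14 and 5 without DKO 13, and that of glucose genes lower was 3 without DKO 15 or MlxKO 6 and 4 without DKO 14.

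Sterol synthesis and uptake, the route from acetyl-CoA to cholesterol, had 11 of 28 genes lower and 2 higher, and 20 lay below MlxKO in every library. The list's mean log2 level was between 5.75 and 5.80 in DKO and between 6.08 and 6.29 in MlxKO libraries. Mvd and Pmvk, consecutive mevalonate enzymes, were at 10.9, 9.79 and 9.72 against 22, 34.6 and 36.4 CPM and at 8.47, 6.67 and 6.63 against 12.6, 18.8 and 19 CPM, and they fell by 1.49 and 1.09. Insig2, which holds back the sterol-sensing machinery, was higher by 0.55. In primary cells 24 of the 28 genes were lower in DKO and 2 higher, with a median of -1.18 against -0.33 here. The count lower was 6 without DKO 14, MlxKO 6 or MlxKO 7 and 7 without DKO 15. It was 17 with WT library 4 left out and 19 under scaling by library totals.

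Cell cycle genes were lower in primary DKO cells in larger number than in immortalized ones. In primary cells 41 of 44 DNA replication and 43 of 47 mitosis genes were lower in DKO than in MlxKO and 0 were higher. Over all genes tested in primary cells, 25.9% were lower. In immortalized cells, 11 replication genes were lower and 3 higher, with a median of -0.20, and 2 mitosis genes were lower and 6 higher, with a median of 0.06 (-0.11 under scaling by library totals and 0.00 with the GC correction). Calls thus covered 31.8% of replication genes, near the 30.1% of all genes, and 17.0% of mitosis genes, under that share. The balance of calls among mitosis genes depended on the setting, with 6 lower and 11 higher when WT library 4 was left out but 10 lower and 3 higher under scaling by library totals. Library totals also gave 22 replication genes lower and 0 higher. The tables of primary and immortalized cells were normalized apart, and the difference between them was not tested. Mcm7, of the replicative helicase, was at 157, 142 and 151 CPM in DKO against 235, 229 and 235 CPM in MlxKO and fell by 0.63, and the licensing factor Cdt1, with 79.96, 64.4 and 69.9 against 111, 112 and 105 CPM, fell by 0.61. Nuf2, of the kinetochore, was higher, with 93.0, 107 and 107 against 67.4, 57.9 and 61.1 CPM (0.71, adjusted p = 0.00277), whereas the cyclin Ccnb2 fell by 0.48. The number of replication genes lower was 5 without DKO 14 or DKO 15 and 6 without MlxKO 6 or MlxKO 7, that of replication genes higher 1 without any of these 4, and that of mitosis genes higher was 2 without DKO 14, MlxKO 6 or MlxKO 7 and 4 without DKO 15 or DKO 13.

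Among 30 regulators of G1 and S phase 9 were lower and 4 higher. Cdk6, a kinase that phosphorylates Rb, was at 7.85, 7.30 and 6.02 CPM in DKO against 34.4, 36.3 and 33.0 CPM in MlxKO (log2 fold change -2.15, SE 0.27, adjusted p = 0.000175). The CDK inhibitor Cdkn1c, an imprinted gene, was lower too, with 6.43, 4.98 and 6.41 against 25.2, 31.3 and 30.6 CPM (-2.11, adjusted p = 0.000676). Both genes had interactions of the same sign (-3.13 and -2.84). Rb1 was higher, with 51.7, 62.5 and 56.7 against 38.1, 27.5 and 30.6 CPM (0.82, adjusted p = 0.00274), and Cdkn1b by 0.54. Calls lower fell to 5 without MlxKO 6, 6 without DKO 14 or MlxKO 7. Calls higher were 7 with WT library 4 left out, 8 with the GC correction and 2 under scaling by library totals.

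Trp53, the gene for p53, was at 120, 102 and 110 CPM in DKO against 169, 193 and 191 CPM in MlxKO and fell by 0.73 (SE 0.10, adjusted p = 0.000231). Of 30 targets of p53, 6 were higher and 3 lower, so that 30% were called, near the 30.1% of all genes. The list of 33 genes that holds Trp53 as well had 6 higher and 4 lower, or 11 and 6 with WT library 4 left out. Bbc3 (PUMA), which promotes apoptosis, fell by 1.07 (a call lost without DKO 14, DKO 15, MlxKO 6 or MlxKO 7), while the death receptor Tnfrsf10b was higher by 0.88 (110, 118 and 113 against 58.6, 61.0 and 64.6 CPM) and the stress cytokine Gdf15 by 1.42, the latter lost without DKO 15 and with a pseudocount of 0.1. Cdkn1a (p21) was at a mean of 158 CPM in DKO and 163 CPM in MlxKO (-0.04, adjusted p = 0.91). Of 90 DNA repair genes 11 were lower and 6 higher, both under the background shares. With WT library 4 left out the counts were 17 (18.9%) and 11, and 20.6% of all genes were lower in that fit. They were 18 and 3 with the GC correction, and 32 (35.6%) and 1 under scaling by library totals, where 23.9% of all genes were lower. Among them were the uracil glycosylase Ung (-0.80) and the fork protein Timeless (-0.79), the largest falls, and Nbn, of the double-strand break sensor, which was higher by 0.62. In primary cells 54 repair genes were lower and 2 higher. Without one library the p53 list had 3 calls higher (DKO 15) and 2 lower (DKO 14, DKO 15, MlxKO 6 or MlxKO 7), and the repair list 5 lower without MlxKO 6, 6 without DKO 14 and 7 without DKO 15 or MlxKO 7. Its calls higher were 1 without DKO 14 and 2 without DKO 15, MlxKO 6 or MlxKO 7.

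Contractile genes of smooth muscle and myofibroblasts were higher in DKO cells. Of 15 tested, 10 were higher and 0 lower, 13 lay above MlxKO in every library, and the median log2 fold change was 0.86. The list's mean log2 level was between 7.61 and 7.77 in DKO and between 6.78 and 6.82 in MlxKO libraries, and still higher, between 8.64 and 8.75, in MycKO libraries. Acta2, smooth muscle actin, was at 3769, 3809 and 4065 CPM in DKO against 1736, 1676 and 1682 CPM in MlxKO (1.19, adjusted p = 0.00135). Myh11, smooth muscle myosin, was at 9.55, 8.31 and 6.07 against 0.532, 0.651 and 0.306 CPM (2.57, SE 0.22, adjusted p = 1.02e-05), and Lmod1, an actin nucleator, at 79.6, 64.9 and 68.7 against 22, 25.4 and 26.5 CPM (1.49, adjusted p = 1.05e-05). The other 2 comparisons of Myc loss gave the same sign, with 14 of the 15 higher and 0 lower in immortalized MycKO against WT and in primary DKO against MlxKO. The difference was smaller without Mlx than with it, since 12 members had a negative and 0 a positive interaction (11 and 0 without WT library 4, whose mean log2 level was 6.99 against 6.22 and 6.37 in the other WT libraries). The number higher was 8 without DKO 14 or MlxKO 6 and 7 without any other single DKO or MlxKO library, and 7 under scaling by library totals.

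The extracellular matrix changed in both directions. Of 28 collagen chains 9 were higher (15 with the GC correction) and 4 lower, of 43 matricellular and basement membrane proteins 13 and 6 (19 and 10 with WT library 4 left out), and of 26 matrix proteases and inhibitors 10 and 5. Ccn1 and Ccn2, matricellular proteins and targets of YAP, were at 3014, 3132 and 3174 CPM in DKO against 850, 974 and 981 CPM in MlxKO and at 2934, 3250 and 3140 against 650, 787 and 820 CPM. They were higher by 1.73 (SE 0.12, adjusted p = 1.69e-06) and 2.05 (SE 0.36, adjusted p = 0.00142). Plau, the urokinase protease, was higher by 2.05 (84.9, 101 and 96.1 against 21.6, 23.2 and 20.9 CPM) and the proteoglycan Fmod by 2.53. In the other direction, Fbn2, an embryonic microfibril protein, was at 28.5, 27 and 19.99 against 300.3, 355 and 341 CPM (-3.68, SE 0.32, adjusted p = 1.05e-05), Postn at 105, 104 and 96.8 against 505, 360 and 375 CPM (-1.99), and Col7a1, the anchoring fibril collagen, fell by 2.43. Type IV chains Col4a3 and Col4a4, which lie head to head and pair in one basement membrane network, were both higher (3.40 and 3.19). Among 20 YAP and TEAD targets 8 were higher and 2 lower (8 and 4 with WT library 4 left out), and among 26 adhesion genes 7 and 7. These counts are 50% and 53.8% called, against 30.1% of all genes. Icam1, which binds leukocytes, had 0.398, 0.792 and 0.718 CPM in DKO against 23.3, 17.8 and 19.8 CPM in MlxKO, a fall by 3.70 (adjusted p = 1.05e-05). The count of proteases higher was 6 without MlxKO 6 or MlxKO 7, that of adhesion genes higher 4 without DKO 14, MlxKO 5 or MlxKO 7, and that of adhesion genes lower 4 without DKO 15 or MlxKO 6.

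Interferon-stimulated genes and MHC class I genes were lower in DKO than in MlxKO cells, in number depending on a library outside the pair. Of 48 tested, 12 were lower and 1 higher, but 40 lay below MlxKO in every library and the median log2 fold change was -0.95. These calls covered 27.1% of the list, under the 30.1% of all genes. Among the 36 interferon-stimulated genes 5 were lower and 1 higher (16.7% called), and 29 lay below MlxKO in every library. When WT library 4 was left out of the shared fit, 39 of the 48 were lower and 1 higher, where 20.6% of all genes were lower. The counts were the same in a fit to the 6 libraries alone, where 22.6% of all genes were lower. The list's mean log2 level was between 6.31 and 6.41 in DKO, 7.25 and 7.44 in MlxKO, 6.18 and 6.23 in MycKO, and 6.05 and 6.21 in WT libraries 2 and 3, but 2.99 in WT library 4. The MlxKO libraries were thus the highest of the immortalized groups. Oas3, which makes the activator of RNase L, was at 5.40, 4.30 and 3.37 CPM in DKO against 114, 106 and 92.9 CPM in MlxKO (-4.31, SE 0.54, adjusted p = 0.000162), its relative Oas2 fell by 2.97 and the antiviral GTPase Mx1 by 2.29. The calls on Oas2 and Mx1 were lost with a pseudocount of 0.1. Of the 12 MHC class I genes 7 were lower, with H2-K1, a classical class I heavy chain, at 394, 361 and 382 against 1074, 931 and 895 CPM (-1.35, adjusted p = 0.00991), whereas their shared light chain B2m had means of 1815 and 1654 CPM (0.15, adjusted p = 0.652). Leaving out DKO 14, DKO 15 or MlxKO 6 left 7 calls lower, and leaving out DKO 13, MlxKO 5 or MlxKO 7 left 8.

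MycKO minus WT of the same list had a median of 1.08 (13 higher, 1 lower) with all WT libraries and of 0.06 (20 higher, 19 lower) without WT library 4. The interaction was negative for 21 and positive for 1 of the 48 with all libraries and negative for 33 and positive for 6 without it. In primary cells 20 were lower and 7 higher in DKO, with a median of -0.22. Of 42 chemokine and cytokine genes 15 were lower and 9 higher. The interferon-inducible Cxcl10 was at 17.2, 26.2 and 24.0 CPM in DKO against 204, 143 and 162 CPM in MlxKO (-2.87, adjusted p = 0.00136) and Ccl5 at 2.50, 3.68 and 4.75 against 40.7, 24.9 and 26.3 CPM (-2.76). Igfbp4, which binds insulin-like growth factors, was higher (2.71, adjusted p = 1.56e-06), with 465, 413 and 434 against 65.2, 68.6 and 64.0 CPM, and so were Fgf7 (1.92) and Igf1 (1.77), while Igfbp3 fell by 2.50. Of 12 complement genes 3 were higher and 3 lower (5 and 4 with WT library 4 left out). The first of these counts is 50% called, against 30.1% of all genes. Among the 12 genes, Cd55, an inhibitor of complement on the cell surface, was higher by 1.23, and C3 and C4b were lower by 1.61 and 2.22. In primary cells 11 of these 12 were higher.

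Lysosomal and autophagy genes were higher in DKO cells. Of 35 tested, 13 were higher and 1 lower, 21 lay above MlxKO in every library, and the median log2 fold change was 0.37. The mean log2 level was between 7.23 and 7.26 in DKO and between 6.92 and 6.96 in MlxKO libraries. Asah1, acid ceramidase, was at 538, 629 and 675 CPM in DKO against 334, 272 and 302 CPM in MlxKO (1.02, adjusted p = 0.00077). Npc1, which exports cholesterol from lysosomes, was higher by 0.87. The member that was lower was Tfe3, a transcription factor of this program (-0.41). MycKO minus WT gave 14 higher and 2 lower (12 and 8 without WT library 4), whereas primary DKO minus MlxKO gave 9 and 8 with a median of 0.00. The count higher was 19 with WT library 4 left out (and 2 lower), 8 under scaling by library totals, 8 without DKO 14 or DKO 15 and 7 without MlxKO 6 or MlxKO 7.

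Several genes that mark the sex and body position of the embryos differed between the lines. Of 6 tested genes placed on the Y chromosome 4 were lower and 2 higher in DKO. The 4 protein-coding ones, Ddx3y, Uty, Kdm5d and Eif2s3y, were at most at 2.04 CPM in DKO and at least at 10.4 CPM in MlxKO libraries. Ddx3y, an RNA helicase, was at 1.25, 1.75 and 2.04 against 56.8, 42.9 and 43.7 CPM (-4.18, adjusted p = 0.00221). The 2 that were higher are annotated as noncoding RNAs, Gm21860 with 2.05, 2.21 and 2.37 against 0.0484, 0 and 0 CPM, and Gm47283 with 396, 319.7 and 337 against 118, 154 and 152 CPM (1.31, adjusted p = 0.00375). Xist, which silences one X chromosome in female cells, went the other way, with 1133, 1156 and 790 against 266, 254 and 238 CPM (2.00, adjusted p = 0.002). Primary cells differed likewise, with Ddx3y lower by 2.38 and Xist higher by 1.81 in DKO. WT library 4 differed from WT libraries 2 and 3 in the same genes, with 106 against 6.56 and 4.61 CPM of Ddx3y. The part of sex in the other differences was not tested.

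Hox genes, which record position along the body, had calls in both directions. Of 33 tested, 13 were lower in DKO and 4 higher, and these were 7 of 8 Hoxb and 6 of 9 Hoxc genes lower, and 2 of 9 Hoxa and 2 of 7 Hoxd genes higher. With WT library 4 left out of the shared fit 15 were lower and 10 higher. Hoxc10 was at 0.227, 0.509 and 0.607 CPM in DKO against 7.11, 7.56 and 5.77 CPM in MlxKO (-2.43), and Hoxd13 at 420, 489 and 463 against 276, 226 and 232 CPM (0.90). Limb identity genes were among the largest differences of all. Tbx5, the forelimb factor, had 0.0569, 0.0566 and 0 CPM in DKO against 50.4, 48.4 and 41.7 CPM in MlxKO, and Pitx1, the hindlimb factor, had 37.8, 33.4 and 31.9 against 0.532, 1.00 and 0.765 CPM. DKO and MlxKO libraries were fully separated for both, in opposite directions, with log2 fold changes of -5.52 (adjusted p = 0.000838) and 4.33 (adjusted p = 1.46e-05). WT libraries 2, 3 and 4 had 0, 0.166 and 25.6 CPM of Tbx5 and 33.1, 33.8 and 7.91 CPM of Pitx1. Both genes thus also differed among libraries of the same genotype. In primary cells Tbx5 did not differ by the test (-0.04, adjusted p = 0.852) and Pitx1 was lower in DKO (-0.57). MycKO minus WT of Hoxb genes was higher for 8 of 8, and all 8 had a negative interaction.

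**Figure D2:**
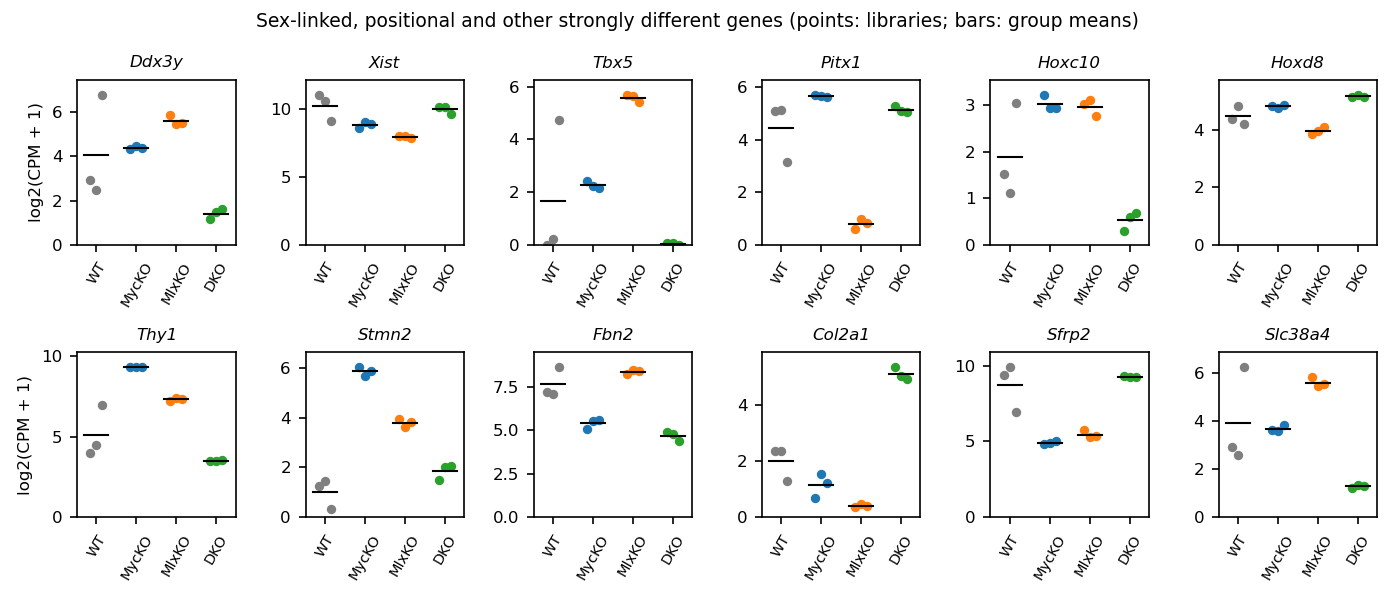
Levels of 12 sex-linked, positional and other genes with large differences in immortalized MEFs, as log2(CPM + 1) on axes that start at 0, with points for libraries and bars for group means. DKO and MlxKO libraries do not overlap for any of them. The point of WT library 4 lies away from the other WT points for Ddx3y, Xist, Tbx5, Pitx1, Thy1, Sfrp2 and Slc38a4.

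The largest falls outside these lists were of secreted, neural and membrane proteins. Crabp1, which binds retinoic acid, was at 0.0569, 0.0566 and 0.607 CPM in DKO against 40.5, 58.9 and 55.0 CPM in MlxKO. Ptn (pleiotrophin), a growth factor, was at 2.39, 3.51 and 3.48 against 141, 123 and 131 CPM (-5.01, SE 0.22, adjusted p = 1.33e-07), a mean 42.0-fold lower. Wnt10a, a Wnt ligand, had 0 reads in the 3 DKO libraries against 22.4, 24.5 and 23.3 CPM in MlxKO, at least 139-fold lower when each DKO library is set to the floor of 3 reads. The fitted values of Tbx5, Crabp1, Wnt10a and the potassium channel Kcnk3, which had 0.0569, 0 and 0 CPM against 27.4, 21.8 and 19.1 CPM, depend on the pseudocount. Nptx1, Cd34 and Apod, of synapses, progenitor cells and lipid transport, had log2 fold changes between -4.66 and -4.12. The amino acid transporter Slc38a4, an imprinted gene, was at 1.31, 1.53 and 1.49 against 56.4, 43.3 and 45.8 CPM (-4.33).

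The largest rise was that of Col2a1, the collagen of cartilage, at 39.3, 31.3 and 28.8 CPM in DKO against 0.290, 0.400 and 0.306 CPM in MlxKO (4.67, SE 0.28, adjusted p = 6.3e-07). Myom1, of the sarcomere, was at 66.2, 61.9 and 56.3 against 2.52, 2.10 and 1.68 CPM (4.34), and Ulbp1, a ligand of the receptor NKG2D on natural killer cells, at 59.3, 78.3 and 69.5 against 2.42, 3.35 and 2.40 CPM (4.23). Sfrp2, a secreted Wnt modulator, was the most abundant of the set, with 621, 599 and 614 against 52.5, 38 and 39 CPM (3.81, adjusted p = 0.000302). Rgs5, Pcdh11x, Slc4a4, Glipr1, Meox2, Slitrk5 and Col4a3 were higher by between 3.40 and 4.05. DKO libraries lay above all MlxKO libraries for each of these genes. Promoters of Myom1 (chr17:71019307-71019556, plus strand) and Ulbp1 (chr10:7473478-7473727, minus strand), in the same RefSeq table, are shown as those of the largest rises with an entry, and neither holds CACGTG.
Myom1: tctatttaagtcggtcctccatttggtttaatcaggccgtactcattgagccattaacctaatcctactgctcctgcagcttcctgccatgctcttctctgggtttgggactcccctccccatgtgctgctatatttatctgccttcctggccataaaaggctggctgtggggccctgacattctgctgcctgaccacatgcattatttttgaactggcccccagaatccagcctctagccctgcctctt
Ulbp1: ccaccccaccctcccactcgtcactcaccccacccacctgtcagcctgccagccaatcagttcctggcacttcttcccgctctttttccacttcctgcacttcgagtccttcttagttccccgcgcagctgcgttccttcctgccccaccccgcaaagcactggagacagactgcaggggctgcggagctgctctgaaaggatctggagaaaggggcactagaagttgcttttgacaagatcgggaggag
No part of the 2 sequences is in capitals for that reason.

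Cell type markers other than those of fibroblasts had calls in both directions. Of 19 tested, 7 were higher and 6 lower in DKO, where 16.3% of all genes were higher and 13.9% lower. Cartilage markers summed to between 85.6 and 109 CPM in DKO and between 23.5 and 26.5 CPM in MlxKO libraries, with 0 of 6 at 0 and 3 and 4 below 1 CPM. Skeletal muscle markers summed to between 85.6 and 91.2 against 9.49 and 10.4 CPM, nearly all of it Acta1 (90.8, 85.5 and 88.7 against 9.63, 10.4 and 9.29 CPM), with 5 of 8 markers at 0. Neural markers summed to between 217 and 232 against 88.4 and 91.1 CPM, most of it Map2 (211, 224 and 209.7 against 66.7, 63.2 and 64.3 CPM). Of the 4 neural markers tested Map2 was higher, while Stmn2, Sox2 and Tubb3 fell by 1.95, 1.75 and 1.12. Thy1, a surface marker of fibroblasts and neurons, was at 10.3, 10.2 and 10.7 against 147, 171 and 164 CPM (-3.82, adjusted p = 0.000302). Their part in the other differences was not tested. Among 22 imprinted growth genes 7 were higher and 5 lower (54.5% called, against 30.1% of all genes). Dlk1 fell by 3.79 (0.739, 0.792 and 0.331 against 31.7, 17.8 and 17.0 CPM), whereas Meg3 and Rian, noncoding RNAs of the opposite allele of the same cluster, were higher by 1.50 and 2.04. The count of imprinted genes higher was 3 without DKO 15, MlxKO 6 or MlxKO 7 and under scaling by library totals, and 4 without DKO 14.

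Differences between DKO and MlxKO cells went with the GC content of transcripts. Spearman's rho between GC content and log2 fold change over 12863 genes was -0.30. In the fifth of genes with the lowest GC content 666 were higher and 112 lower in DKO, with a median log2 fold change of 0.21, and in the fifth with the highest GC content 220 were higher and 615 lower, with a median of -0.21. The trend ran the other way in MycKO minus WT (rho 0.39) and in primary DKO minus MlxKO (rho 0.31). It also differed among replicates, since the deviation of a library from the mean of all 12 had a rho with GC content of 0.09, 0.53 and 0.43 in MlxKO and of 0.25, -0.23 and -0.23 in DKO libraries. Genes are not independent replicates, and these values are descriptions. With each library corrected for GC content and length, 4308 genes were called, 53.2% of them higher, and 83.3% of the main calls were among them in the same direction. Of the medians of 32 lists 19 moved by more than the spread between replicates of the list's mean. Medians went from -0.52 to -0.49 for nucleolar genes, -0.62 to -0.57 for ribosomal proteins, 0.86 to 0.87 for contractile genes, -0.95 to -0.92 for interferon and MHC class I genes and 0.37 to 0.35 for lysosomal genes. Larger moves were those of collagens, from 0.35 to 0.53, YAP and TEAD targets, from 0.24 to 0.40, Hox genes, from -0.37 to -0.22, glucose genes, from -0.23 to -0.09, and translation factors, from -0.15 to -0.23.

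The same question was asked of cells with Mlx, where MycKO was compared with WT, with the limit of ploidy given at the start. The interaction passed the test for 6108 genes (47.4%), 3047 positive and 3061 negative, and 2714 of the 3879 genes called between DKO and MlxKO (70.0%) were among them. Because the interaction contains DKO minus MlxKO, this overlap is partly built in and is only a description. With the GC correction the interaction passed for 5359 genes, and 64.2% of its main calls were among them in the same direction. Counts of interactions in the gene lists are given without that correction. Of 2105 genes called in both DKO minus MlxKO (54.3% of its calls) and MycKO minus WT (34.1% of its calls), 736 went the same way and 1369 the opposite way, and the log2 fold changes of all genes had r of -0.19. Without WT library 4, 1092 of 3347 went the same way (32.6%). With the GC correction the split was even, at 1132 against 1129 genes. The 2 comparisons share no library. With primary DKO minus MlxKO, 2007 genes were called in both (53.9% and 33.0%), of which 1214 went the same way (60.5%), or 1657 of 2368 (70.0%) with the GC correction.

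The genes that follow were picked for the largest interactions of each sign, a choice that favours opposite directions in the 2 backgrounds. Crabp1 and Stmn2, a microtubule regulator of neurons, were higher in MycKO than in WT cells (4.86 and 4.85) and lower in DKO than in MlxKO (-5.41 and -1.95), as were Thy1 and Galnt17. Sfrp2, Cdsn, Malrd1, Il1rn and Mest were lower in MycKO than in WT, with log2 fold changes between -5.02 and -3.69, and higher in DKO than in MlxKO, with values between 2.57 and 3.81. Levels of Stmn2 were 64.2, 50.7 and 57.5 CPM in MycKO libraries 9, 10 and 11 and 14.5, 11.5 and 13.1 CPM in MlxKO but 1.41, 1.78 and 0.243 CPM in WT libraries 2, 3 and 4 and 1.82, 3.05 and 3.15 CPM in DKO. MycKO and MlxKO libraries all lay above those of WT and DKO. Il1rn, the antagonist of the interleukin-1 receptor, showed the reverse, with 95.9, 115 and 118 CPM in DKO and 59.9, 46.1 and 87.6 CPM in WT against 11.5, 13.7 and 12.9 CPM in MlxKO and at most 3.78 CPM in MycKO libraries. Each of these genes kept its sign without WT library 4.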

How the data were processed

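Poly-A RNA of immortalized and primary MEFs was sequenced, and the authors mapped reads to GRCm39 and counted them per gene in CLC Genomics Workbench. The deposited signal values are named CPM, but libraries sum to between 915691 and 1077213, so the authors applied a further scaling factor. Every value of all libraries was a whole number of reads within 0.01 read (100%), and the reads numbered between 17541112 and 19851300 in immortalized libraries, where a count of 3 was taken as the floor; floors cover counting error only. 0 columns were left unused.

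Values were tested on log2(CPM + 1) with limma 3.58.1 (R 4.3.3; trend; one fit of 4 groups; Benjamini-Hochberg), and log2 fold changes understate those of low genes. An exact permutation test of 3 against 3 cannot go below 0.1. Alternatives, edgeR 4.0.16 and DESeq2 1.42.0 on recovered reads among them, and those added after seeing the data (WT library 4 left out, GC correction) are described in the closing section. The method was tested on simulated data. Python 3.11.15, pandas 2.3.3, numpy 2.4.6 and matplotlib 3.10.9 were used.

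Genes were named by rule: all members of the network, bypass, arrestin and sex-linked lists, the 12 largest rises and falls without overlap at 5 CPM or more, up to 3 per direction in every other list, and the 5 largest interactions of each sign. Lists and members were chosen with earlier results of these data known. Fbl, Acta2, H2-K1, B2m, Cdkn1a, Wdr46, Nop2, Map2, Tubb3, Gm21860 and Gm47283 were named after their values or sequences were seen. Some genes that these rules name are not reported here. Strand setting and annotation version are not given in the sources used here.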

Additional observations from a re-analysis of the deposited data

Results flagged for a closer look

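The difference between Myc loss in cells without Mlx and in cells with it was tested directly, by an interaction term of limma, and it passed for 6108 genes. With the GC correction it passed for 5359 genes, and 64.2% of the 6108 were among them in the same direction. The limits of ploidy and of line history given at the start hold here too. Each gene below was singled out because its own interaction, (DKO minus MlxKO) minus (MycKO minus WT) on the log2 scale, passed the test without the GC correction. Among Myc relatives and partners it was -1.65 for Mycn, -3.83 for Mycl, -1.12 for Mxd3, 0.72 for Mxd4 and 0.59 for Mxi1. Of the bypass genes it was -0.49 for Shmt1 and -3.57 for Hmga1. Arrestin-domain genes had 1.796 for Arrdc3, 1.39 for Arrdc4 and -0.63 for Arrdc1.

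Sex-linked genes had -4.52 for Ddx3y, -4.28 for Eif2s3y, -3.72 for Kdm5d, -3.86 for Uty and 3.39 for Xist. WT library 4 differed from the other WT libraries in these genes, among others, and without it the values were -5.86 for Ddx3y and 3.97 for Xist. The part of that library in the other interactions was not tested beyond leaving it out.

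Among the 5 most negative interactions were those of Crabp1 (-10.3), Thy1 (-8.00), Stmn2 (-6.79) and Galnt17 (-6.74). The 5 most positive were those of Cdsn (8.14), Sfrp2 (7.65), Malrd1 (7.06), Il1rn (6.99) and Mest (6.91). Without WT library 4 they were -11.7 for Crabp1, -8.91 for Thy1, 8.51 for Cdsn, 8.54 for Sfrp2 and 8.20 for Mest.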

How the results depend on the processing

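Between DKO and MlxKO 3879 genes were called. The count was 3813 with a pseudocount of 0.1, 3794 without a filter, 3221 at a mean of 5 CPM, 3858 with median-ratio scaling, 4340 with scaling by library totals, 3817 with edgeR, 4291 with DESeq2 and 4308 with the GC correction. A fit to the 6 libraries alone gave 6011 and leaving WT library 4 out of the shared fit 5565. With a log2 fold change of at least 1 as a further condition the counts were 1000 here, 3186 for the interaction, 1845 for MycKO against WT and 635 for primary DKO against MlxKO. Leaving out one library gave between 2352 and 3521 genes, and 4 libraries moved the count by over 1.5 times: 2386 without DKO 14, 2539 without DKO 15, 2352 without MlxKO 6 and 2401 without MlxKO 7. Scaling by library totals moved the share of positive interactions from 49.9% to 37.2% and that of primary genes higher in DKO from 47.3% to 32.4%. The interaction of Arrdc1 turned from -0.63 to 0.12 with the GC correction, and its cause was not tested. Of 173 named genes called, 173 kept their direction in every alternative and 137 their call. No paired analysis was possible because replicate numbers in the labels could not be tied to the numbering of libraries in the tables. Depth limits the genes near 1 CPM, where 1 read is between 0.0484 and 0.0609 CPM.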

Other observations

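Differences between DKO and MlxKO cells were not spread evenly over chromosomes, which was looked at after the data were seen. Of 511 tested genes on chromosome 15, which holds Myc, 51 were higher and 141 lower in DKO, with a median log2 fold change of -0.20, and of 828 on chromosome 5, 89 were higher and 185 lower (median -0.16). Of 732 genes on chromosome 1, 206 were higher and 63 lower (median 0.20), and of 440 on chromosome 14, 116 were higher and 32 lower (median 0.20). With the GC correction the medians were -0.17, -0.16, 0.14 and 0.14. The cause was not tested.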
